A study of Homo sapiens with 6 samples.

Results

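Cytosolic ribosomal protein genes were followed in A375 cells, an established human melanoma line that carries an activated BRAF kinase, after 6 h with CuB or with its solvent DMSO. CuB is cucurbitacin B, a plant triterpenoid. The labels give 3 CuB libraries and 3 DMSO libraries of polyadenylated RNA. The protocol states a CuB dose of 0.2 µM while the names of the libraries state 100 nM, and the dose is therefore uncertain. Separate cultures are not named for the replicates, so p-values measure only the spread between these libraries, which may be technical. Both groups are the same line with no other agent or allele named, so the values describe 1 cell line at 1 time.

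The genes were chosen by a rule on name, biotype and chromosome, with earlier results of these data known. The rule took protein-coding genes off the Y chromosome called RPSA, or RPL, RPS or RPLP with a number and at most a short A, L, X or AL ending. Of 58735 genes in the deposited table, 82 met this rule, 50 of the large subunit and 32 of the small subunit. They lie on 21 chromosomes, with 12 on chromosome 19 and 4 on chromosome X. A total of 79 reached a mean of 1 FPKM (the authors' unit of fragments per length of gene and size of library) and were tested, 48 of the large and 31 of the small subunit. RPS10, RPL10L and RPL3L stayed under that level and are described without a test.

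A cytosolic ribosome is built from a large subunit, which joins amino acids, and a small subunit, which reads the mRNA, and each ribosomal protein is needed in nearly equal numbers of copies. Most of these proteins are essential and come from single genes that are expressed strongly in every dividing cell, and their genome copies include many processed pseudogenes. Many ribosomal protein mRNAs begin with a C followed by a run of pyrimidines, the terminal oligopyrimidine tract or TOP, through which mTOR and LARP1 control their translation and storage.

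The start of the transcript is shown for the genes that changed most and have an entry in the RefSeq promoter table (build GRCh38.p14), and for copies compared with their parent gene. Each line gives 10 bases before and 20 bases from the annotated start on the gene's strand, 5′ to 3′, and capitals mark a run of at least 5 C or T bases that opens with a C at the start base.
RPSA: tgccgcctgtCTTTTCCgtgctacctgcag
RPL22: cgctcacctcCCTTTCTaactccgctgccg
RPS25: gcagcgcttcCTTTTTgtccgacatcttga
RPL29: cagcccctttCTCTTCCggttctaggcgct
RPS29: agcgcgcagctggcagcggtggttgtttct
RPL36AL: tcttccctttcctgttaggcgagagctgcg
RPL39: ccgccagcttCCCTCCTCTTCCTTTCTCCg
RPS27: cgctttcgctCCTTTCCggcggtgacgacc
RPS27L: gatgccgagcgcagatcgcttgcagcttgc
RPL10: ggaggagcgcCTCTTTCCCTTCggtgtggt
RPL10L: gtagttaagagagcgcattttgacttcgag
The windows are RPSA at chr3:39406710-39406739 (+), RPL22 at chr1:6199576-6199605 (-), RPS25 at chr11:119018324-119018353 (-), RPL29 at chr3:51995876-51995905 (-), RPS29 at chr14:49598691-49598720 (-) and RPL36AL at chr14:49620607-49620636 (-). The copies are RPL39 at chrX:119791611-119791640 (-), RPS27 at chr1:153990752-153990781 (+), RPS27L at chr15:63157458-63157487 (-), RPL10 at chrX:154398367-154398396 (+) and RPL10L at chr14:46651762-46651791 (-). RPL10 has 3 entries in the table, and the one with the longest run is shown.

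An entry was found for 65 of the 82 genes, and 46 of them (70.8%) had such a run, in at least 1 entry, against 5.14% of the 27305 genes in the table and 7.66% of the 9012 tested genes with an entry. The longest run among them had 19 bases, in RPL39. RPS29 and RPL36AL, both lower with CuB, had no run of that length at the annotated start. A match describes these letters only, since the start used in A375 cells was not measured.

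The libraries held 15502971, 16072462 and 16137093 fragments with CuB, against 14845976, 15797757 and 15116550 with DMSO, recovered from the deposited values. The authors' FPKM values imply library sizes of 0.914, 0.926 and 0.927 times these totals with CuB and 1.03, 1.04 and 1.03 times with DMSO, so the deposited scaling differed from one by fragment totals. Among melanocyte lineage genes, SOX10 lay between 184 and 245 FPKM with CuB and between 162 and 256 FPKM with DMSO, and MITF between 3.75 and 5.17 against 3.42 and 4.25 FPKM. S100B, a calcium-binding protein of the lineage, was the 1 of the 8 lineage genes called, at 6.82, 6.59 and 6.51 FPKM with CuB and at 27.6, 24.6 and 27.0 FPKM with DMSO (log2 fold change -1.84 ± 0.08, SE; limma, adjusted p = 1.27e-05). The pigment genes PMEL, MLANA, TYR, DCT and TYRP1 were at most 1.29 FPKM in any library. The 9 markers of immune, stromal, endothelial and epithelial cells summed to between 2.39 and 4.27 FPKM with CuB and between 2.996 and 3.72 FPKM with DMSO. Of these, KRT14 and LYZ reached 1 FPKM on average. By limma KRT14 was called higher with CuB (log2 fold change 0.61, adjusted p = 0.0337) and LYZ lower (-0.58, adjusted p = 0.0218). The ratios of their mean FPKM, CuB over DMSO, were 2.05 and 0.477. With each library set to the same FPKM sum or to equal fragment totals, 0 of the 9 markers were called higher and 1 lower. Libraries also deviated from their group by the base composition of transcripts, most of all DMSO replicate 2, as described further on.

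Ribosomal protein genes took a smaller share of all fragments with CuB. The share was 4.59%, 4.47% and 4.63% in the CuB libraries, against 5.30%, 5.69% and 5.38% in the DMSO libraries. Every CuB library lay below every DMSO library, and the 95% exact (Clopper-Pearson) interval of a share, which covers counting error only, was at most 0.0114 points wide on each side. On the authors' scaling the gap was smaller. Summed FPKM was 17509, 16722 and 17344 with CuB, against 17888, 19142 and 18192 with DMSO, which again did not overlap. In bulk RNA a lower sum from less RNA per cell and one from fewer cells of a kind cannot be told apart. Fragments of the mitochondrial chromosome, another abundant class, were lower too, with 2.70%, 2.34% and 2.25% of fragments in the CuB libraries and 3.87%, 3.25% and 3.91% in the DMSO libraries. Their part in the ribosomal protein share was not tested.

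Both subunits shared the lower sum in nearly the same proportion. The large subunit genes summed to 9910, 9549 and 9918 FPKM with CuB and to 10222, 10950 and 10361 FPKM with DMSO. The small subunit genes summed to 7599, 7173 and 7425 FPKM with CuB and to 7666, 8192 and 7832 FPKM with DMSO. Within each subunit the groups did not overlap. The ratio of the large to the small sum was 1.30, 1.33 and 1.34 with CuB and 1.33, 1.34 and 1.32 with DMSO, and here the groups did overlap. The difference in the log2 of this ratio, CuB minus DMSO, was -0.0081, below the SD of 0.014 between replicates.

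**Figure D1:**
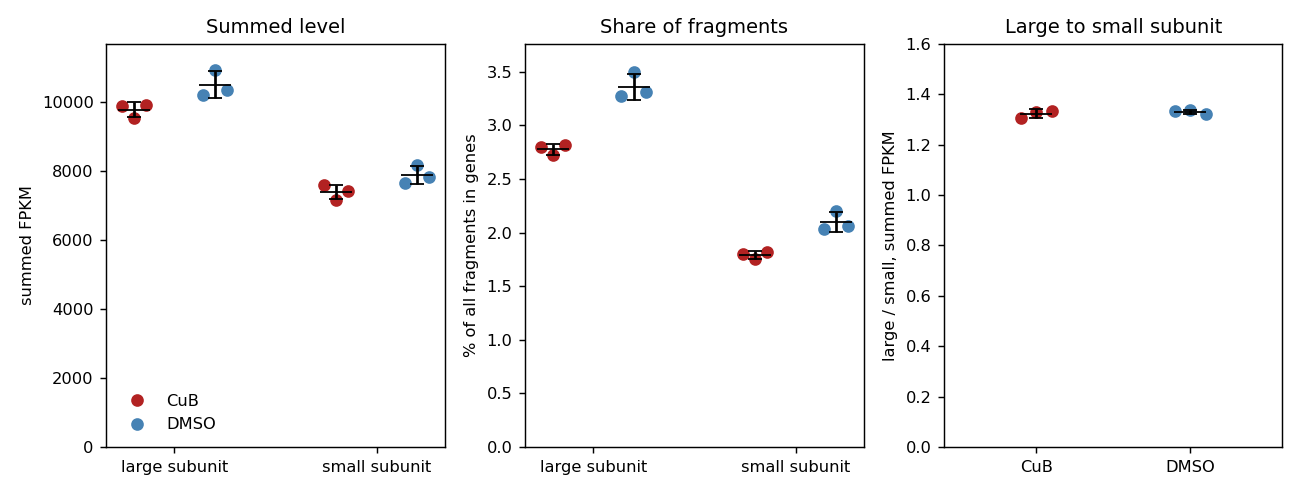
Ribosomal protein genes by subunit in each library, with CuB (red) left of DMSO (blue): summed FPKM (left), percent of all fragments in genes (middle) and the ratio of the large to the small subunit's summed FPKM (right). Points are libraries and bars the mean ± SD (n = 3). Sums and shares of both subunits are lower in all 3 CuB libraries, while the ratios of the groups overlap between 1.30 and 1.34.

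Gene by gene the shift was small and mostly downward. Of the 79 tested genes, 2 rose and 17 fell with CuB at an adjusted p under 0.05 by limma, so that 24.1% were called, against 38.6% of all 13273 tested genes. Higher calls made up 2.53% of the ribosomal protein genes against 22.9% of all genes, and lower calls 21.5% against 15.6%. In some other fits, given further on, the lower share was below that of all genes. Of the 48 large subunit genes 11 fell and 0 rose by limma, and 0 were higher at an unadjusted p under 0.05 or by limma-voom on the recovered fragments. In the small subunit 2 of 31 rose and 6 fell. The median log2 fold change, on the log2(FPKM + 1) scale, was -0.12 over the ribosomal protein genes, with -0.11 in the large and -0.14 in the small subunit, against 0.05 over all tested genes. The middle 50% of the genes lay between -0.20 and -0.02, against -0.25 and 0.35 over all genes. The lowest was -0.48, and all 79 differed by less than 1.5-fold, as did 10308 of the 13273 genes. In 29 genes (36.7%) the CuB and DMSO libraries did not overlap, 27 of them lower and 2 higher, where 51.5% of all tested genes did not overlap, 21.7% of all lower and 29.8% higher.

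**Figure D2:**
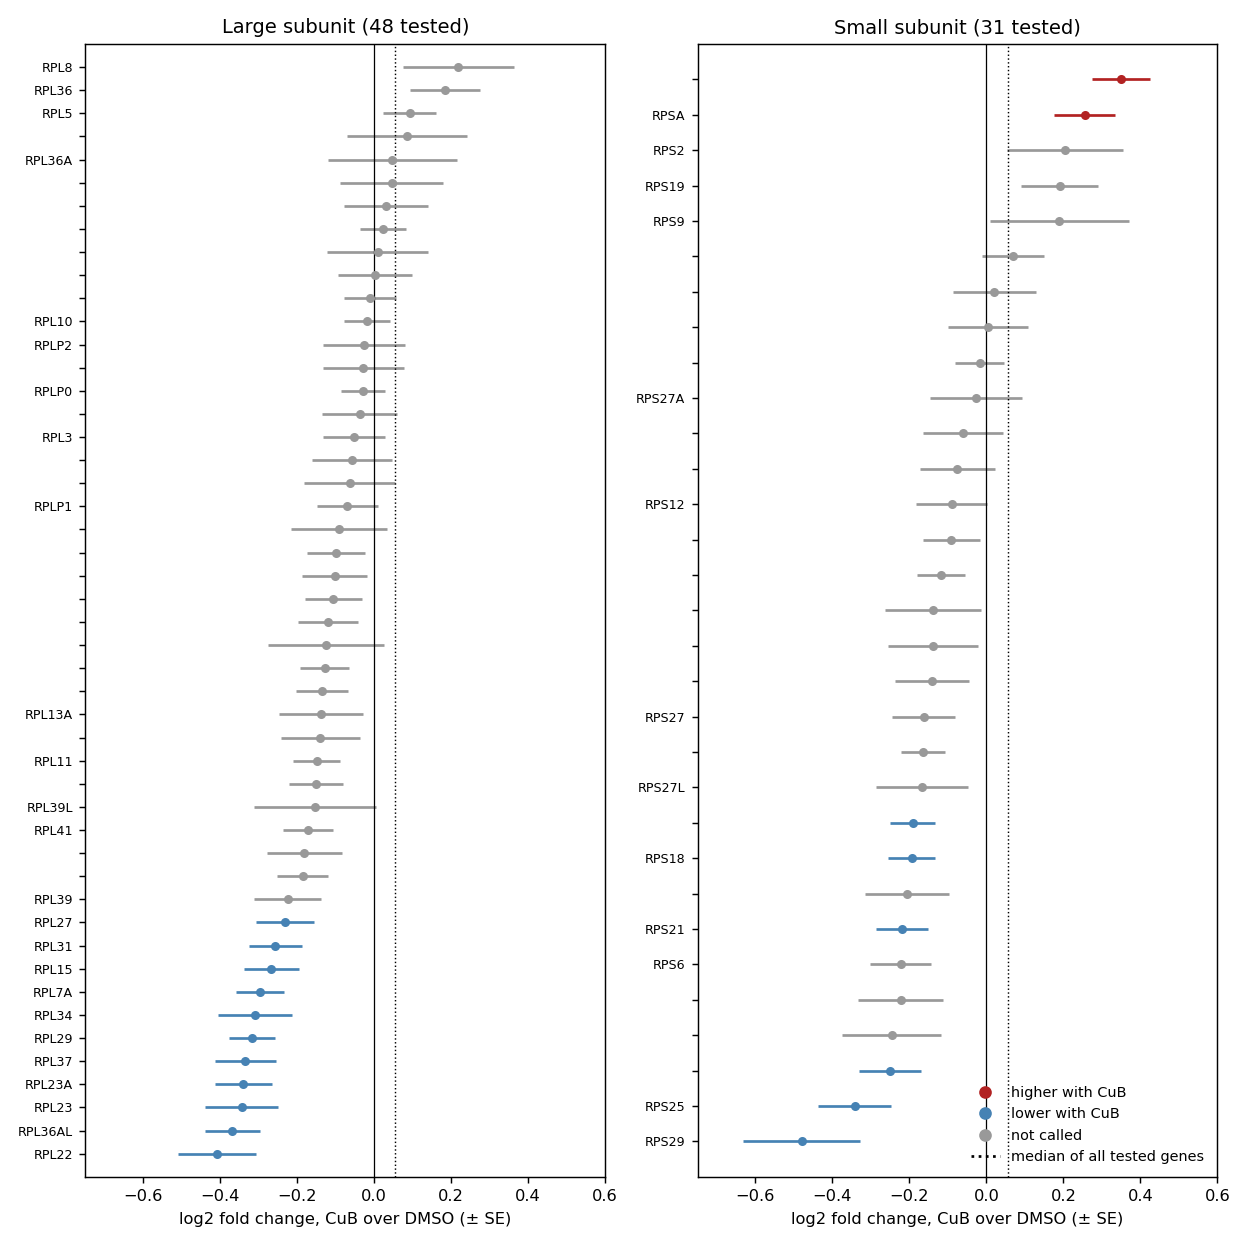
Log2 fold change of CuB over DMSO for the 48 large subunit genes (left) and 31 small subunit genes (right), as points with standard errors, on the log2(FPKM + 1) scale. Blue points are the 17 genes called lower, red points the 2 called higher, and the dotted line marks the median of all tested genes at 0.05. Genes described in the text carry a label, with RPS29 lowest at -0.48.

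Both genes that rose belong to the small subunit, and RPSA is the one described here. RPSA encodes a small subunit protein that is also known as the laminin receptor. It was at 445, 456 and 487 FPKM with CuB, against 365, 427 and 373 FPKM with DMSO. All CuB libraries were above all DMSO libraries, with DMSO replicate 2 nearest to them. The log2 fold change was 0.26 ± 0.08 (SE; limma, adjusted p = 0.0414). RPSA kept its call in 1 of the 6 fits that left out a library, the one without DMSO replicate 2. It was also not called with TPM (limma, adjusted p = 0.172), quantile normalization (0.0789), equal fragment totals (0.417), the GC correction (0.0654), no filter (0.349) or no trend (0.0768). Nor was it called with the replicate block, alone or with the GC correction. The other pseudocounts, a minimum of 5 FPKM, median of ratios, robust hyperparameters and limma-voom kept the call.

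The largest fall was that of RPS29, a short zinc-binding protein of the small subunit. RPS29 was at 8.62, 6.04 and 7.41 FPKM with CuB, against 10.6, 9.002 and 12.3 FPKM with DMSO. The groups did not overlap, but CuB replicate 1 and DMSO replicate 2 were close. Its log2 fold change was -0.48 ± 0.15 (SE; limma, adjusted p = 0.0428), the widest error among the 19 ribosomal protein genes called. The level of RPS29 is understated by its annotated length of 9845 bases, the union of all its exons, where its main transcript has 296 bases. Over the ribosomal protein genes this deposited length had a median of 2992 bases and was 3.63 times that of the main transcript at the median. A longer length lowers FPKM levels but not their ratio between groups, which was 0.691 for the mean FPKM of RPS29. The log2 fold changes given here, on the log2(FPKM + 1) scale, are understated where it makes the level low.

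RPS25, a small subunit protein used by some viral internal ribosome entry sites, was at 419.9, 343 and 346 FPKM with CuB and at 477, 438 and 486 FPKM with DMSO. The groups did not overlap, although CuB replicate 1 was near DMSO replicate 2. The log2 fold change was -0.34 ± 0.10 (SE; limma, adjusted p = 0.0278). RPS21 and RPS18, also of the small subunit, fell with log2 fold changes of -0.22 and -0.19.

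Among large subunit genes RPL22 fell furthest. It encodes an RNA-binding protein that mice can live without. RPL22 was at 29.8, 27.1 and 24.6 FPKM with CuB, against 37.8, 33.1 and 38.2 FPKM with DMSO. All 3 CuB libraries were lower than any DMSO library. The log2 fold change was -0.41 ± 0.10 (SE; limma, adjusted p = 0.0176). Its close copy RPL22L1 was at 68.5, 59.3 and 53.1 FPKM with CuB and at 58.4, 50.3 and 58.0 FPKM with DMSO, so its groups overlapped and it was not called (log2 fold change 0.11 ± 0.11, SE; limma, adjusted p = 0.470).

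RPL36AL fell with little spread between libraries. It is a copy of RPL36A, a protein at the exit site of the ribosome. RPL36AL was at 69.7, 62.5 and 65.8 FPKM with CuB, against 87.2, 83.5 and 85.7 FPKM with DMSO. The groups were well apart, and the log2 fold change was -0.37 ± 0.07 (SE; limma, adjusted p = 0.00709). RPL29, a protein on the outside of the large subunit, was at 329.5, 317 and 345 FPKM with CuB, against 403, 415 and 418 FPKM with DMSO. These groups also stood apart, with a log2 fold change of -0.32 ± 0.06 (SE; limma, adjusted p = 0.00625).

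RPL23A, which sits at the mouth of the tunnel through which new proteins leave, was at 119.7, 117 and 106 FPKM with CuB, against 143, 142 and 149 FPKM with DMSO. The gap between the groups exceeded the spread within either one. The log2 fold change was -0.34 ± 0.07 (SE; limma, adjusted p = 0.0110). RPL7A, a large subunit protein whose introns hold 4 small nucleolar RNA genes, was at 526, 491 and 494 FPKM with CuB, against 624, 590.5 and 642 FPKM with DMSO. It too had no overlap, with a log2 fold change of -0.30 ± 0.06 (SE; limma, adjusted p = 0.00924).

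RPL36AL, RPL29, RPL23A and RPL7A kept their lower call in all 6 fits that left out a library. The fits without CuB replicate 2, CuB replicate 3, DMSO replicate 1 or DMSO replicate 3 called these 4 genes lower and no other ribosomal protein gene. Of all 13273 tested genes these fits called 1297, 1559, 1359 and 1582 lower, a larger share than among the 79 ribosomal protein genes. Without CuB replicate 1 there were 18 lower calls, against 1773 of all genes. Without DMSO replicate 2 there were 17, against 2312 of all genes.

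RPL23, a large subunit protein known to bind MDM2, was at 104, 89.1 and 93.3 FPKM with CuB, against 121, 111 and 133 FPKM with DMSO. Its groups did not overlap, and its log2 fold change was -0.34 ± 0.09 (SE; limma, adjusted p = 0.0265). RPL37, a zinc-binding protein of the large subunit, was at 47.4, 41.3 and 42.8 FPKM with CuB, against 55.8, 54.1 and 56.5 FPKM with DMSO. The DMSO libraries were the tighter group and lay above all CuB libraries, with a log2 fold change of -0.34 ± 0.08 (SE; limma, adjusted p = 0.0150). The remaining large subunit genes that fell were RPL34, RPL15, RPL31 and RPL27, with log2 fold changes between -0.31 and -0.23.

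The 5 ribosomal protein genes with the highest mean FPKM were RPL41, RPL13A, RPS2, RPL8 and RPS12, and none was called as deposited. By limma RPL41 was called lower with TPM, quantile normalization, equal fragment totals and the GC correction. RPL13A was called lower with quantile normalization and the GC correction. RPL41, the shortest ribosomal protein, was at 791, 698 and 729.5 FPKM with CuB and at 805, 835 and 855 FPKM with DMSO, a log2 fold change of -0.17 ± 0.07 (SE; limma, adjusted p = 0.0780) without overlap. RPL13A, also known from a complex that silences translation after interferon, was at 611, 646 and 701 FPKM with CuB and at 666, 841 and 657 FPKM with DMSO, where DMSO replicate 2 stood well above the other libraries. RPS12, of the beak of the small subunit, was at 643, 549 and 524 FPKM with CuB and at 612, 569 and 641 FPKM with DMSO, with overlap.

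RPS2 and RPL8 had positive fold changes that were not called with all 6 libraries as deposited. Leaving out DMSO replicate 2 raised their log2 fold changes to 0.37 and 0.36. RPS2, a protein at the mRNA entry of the small subunit, was at 608, 687 and 726 FPKM with CuB, against 541, 738 and 497 FPKM with DMSO. DMSO replicate 2 was the highest of all 6 libraries and the other 2 DMSO libraries the lowest. The log2 fold change was 0.20 ± 0.15 (SE; limma, adjusted p = 0.324). RPL8, near the catalytic centre of the large subunit, was at 558, 644 and 721 FPKM with CuB, against 516, 667 and 477 FPKM with DMSO (0.22 ± 0.14, SE; limma, adjusted p = 0.271). Here DMSO replicate 2 stood above the other DMSO libraries but below CuB replicate 3. Without DMSO replicate 2 both were called higher, with RPSA, RPS19, RPS9 and RPL36 among the 7 higher genes, where that fit called 25.9% of all genes higher and 17.4% lower. Pseudogenes named after RPS2 took between 16.7% and 21.3% of the fragments of RPS2 and its copies, and the sum of both was 1.14-fold higher with CuB.

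None of the genes for the stalk, which recruits elongation factors to the large subunit, was called as deposited. Under other scalings limma called RPLP0 lower with equal fragment totals (adjusted p = 0.0309) and RPLP1 lower with quantile normalization (adjusted p = 0.0104). RPLP0 was at 525, 499.9 and 522 FPKM with CuB and at 517, 547 and 517 FPKM with DMSO. RPLP1 was at 219, 203 and 217 FPKM with CuB and at 215, 245 and 212 FPKM with DMSO, and RPLP2 at 143, 131 and 139 against 126, 163 and 134 FPKM. The groups overlapped in all 3 genes, and in RPLP2 all CuB libraries lay within the range of the DMSO libraries. The log2 fold changes were -0.03 ± 0.06, -0.07 ± 0.08 and -0.03 ± 0.11 (SE), none called by limma (adjusted p = 0.708, 0.517 and 0.863).

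RPL5 and RPL11 form a particle with the ribosome's 5S RNA that can bind and inhibit the ubiquitin ligase MDM2. RPL5 was at 154, 141 and 142 FPKM with CuB and at 137, 132 and 142 FPKM with DMSO, a log2 fold change of 0.09 ± 0.07 (SE; limma, adjusted p = 0.330). RPL11 was at 258, 239 and 244 FPKM with CuB and at 266, 277 and 279 FPKM with DMSO, a log2 fold change of -0.15 ± 0.06 (SE; limma, adjusted p = 0.0966). Every RPL11 value with CuB was below those with DMSO, although the test was not passed as deposited, while the groups of RPL5 overlapped. By limma RPL11 was called lower with TPM, quantile normalization, equal fragment totals and the GC correction, and RPL5 with none of them.

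RPS6, the small subunit protein that S6 kinases phosphorylate, was at 545, 471 and 475 FPKM with CuB and at 569, 553 and 615 FPKM with DMSO. The groups did not overlap, yet the gene was not called as deposited (log2 fold change -0.22 ± 0.08, SE; limma, adjusted p = 0.0639). RPS6 was called lower with TPM, quantile normalization, equal fragment totals and the GC correction. RPS27A, made as a fusion with ubiquitin, was at 186, 148 and 148 FPKM with CuB and at 168, 145 and 177 FPKM with DMSO, with overlap and a log2 fold change of -0.03 ± 0.12 (SE; limma, adjusted p = 0.880).

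Copies whose names end in L were read beside the gene they copy. RPL36A, the partner of RPL36AL, was at 4.65, 3.88 and 3.75 FPKM with CuB and at 4.44, 2.84 and 4.69 FPKM with DMSO, with overlap. Whether RPL36AL and RPL36A differ in fold change was not tested, and 77.6% of the main RPL36A transcript overlaps the readthrough gene RPL36A-HNRNPH2. RPS27L was at 7.48, 5.44 and 5.96 FPKM with CuB and at 6.91, 6.85 and 7.67 FPKM with DMSO, with overlap. RPS27 was at 355, 306 and 357 FPKM with CuB and at 359.5, 392 and 386 FPKM with DMSO, lower in every CuB library but not called as deposited (limma, adjusted p = 0.154). RPS27 was called lower with TPM, equal fragment totals and the GC correction, but not with quantile normalization. The starts printed above differ in this pair, since RPS27 opens with a run of 7 pyrimidines and RPS27L with a g.

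RPL39L, a copy with a known role in sperm formation in mice, was at 5.26, 7.04 and 7.19 FPKM with CuB and at 7.56, 8.59 and 5.92 FPKM with DMSO, with overlap. RPL39, which lines the exit tunnel, was at 143, 127 and 125 FPKM with CuB and at 156, 142 and 164 FPKM with DMSO. CuB replicate 1 just exceeded DMSO replicate 2, and RPL39 was not called as deposited (log2 fold change -0.23 ± 0.09, SE; limma, adjusted p = 0.0801). With TPM, quantile normalization, equal fragment totals and the GC correction RPL39 was called lower. RPL10L, a copy of X-linked RPL10 that serves male germ cells in mice, was at 0.174, 0.0828 and 0.0824 FPKM with CuB and at 0.160, 0.0752 and 0.0789 FPKM with DMSO, only 1 or 2 fragments a library. RPL10 was at 209, 198 and 202 FPKM with CuB and at 204, 211 and 202 FPKM with DMSO, with overlap. RPL3L, the striated muscle copy of RPL3, was at 0.146 FPKM or less in every library, while RPL3 was at 362, 380.2 and 389 FPKM with CuB and at 373, 433 and 368 FPKM with DMSO, also with overlap.

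Some low levels sit on overlapping annotation. Another gene's exons on the same strand covered at least 40% of the main transcript in 6 genes, among them RPL17 (91.0%), RPL36A (77.6%), RPS10 (74.1%), RPL26 (61.2%) and RPS15A (41.5%). Their means over all libraries ran from 0.957 FPKM (RPS10) to 26.5 FPKM (RPL26), while 55 of the 79 tested genes had a mean of at least 100 FPKM. The overlapping genes held between 0 and 7 fragments over all libraries. How fragments shared by overlapping genes were counted is not given in the sources used here, and their part in these levels was not tested. The 5 of them that were tested had a median log2 fold change of 0.04, against -0.13 for the other 74. Without them 1 higher and 17 lower calls were left (1.35% and 23.0%, against 22.9% and 15.6% of all tested genes). The library kit does not mark strand, and exons of 16 ribosomal protein genes overlap a gene on the opposite strand, so fragments of such pairs cannot be told apart.

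The annotation holds 1132 pseudogenes named after 76 of the ribosomal protein genes, and together they took between 3.69% and 3.73% of the fragments of genes and pseudogenes with CuB and between 3.65% and 3.69% with DMSO. In RPL9 and RPS10 the pseudogenes held more fragments than the gene itself over all libraries. For RPL9 they took between 58.2% and 60.5% in every library, and the sum of gene and pseudogenes was 0.962-fold with CuB. Counts of these genes are uncertain where fragments fit more than 1 copy.

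Fold changes among the ribosomal protein genes went with the GC content of their transcripts. Across the 79 genes, whose GC content ran from 41.9% to 63.5%, Pearson's r with the log2 fold change was 0.38 and Spearman's rho 0.32, against 0.05 and 0.03 over 13265 tested genes. These are correlations across genes of the same 6 libraries, and genes are not independent replicates. At a split of 55% GC, chosen after the values were seen, the 18 genes above held 1 lower call (RPL29) and had a median log2 fold change of -0.01, and the 61 below held 16 lower and 2 higher calls with a median of -0.14. Lower calls were 5.56% of the genes above the split and 26.2% of those below, against 15.6% of all tested genes. With the level of the gene the fold change had r = 0.02.

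The same composition separated libraries of 1 group. The correlation of a library's deviation from its group mean with GC content over the 79 genes was -0.56, 0.35 and 0.55 for CuB replicates 1, 2 and 3 and -0.61, 0.69 and -0.63 for DMSO replicates 1, 2 and 3. Genes rich in GC were thus high in DMSO replicate 2 and low in the other DMSO libraries, as were RPS2 and RPL8. Over all tested genes the values were -0.54, 0.13 and 0.51 with CuB and -0.39, 0.72 and -0.58 with DMSO. When a smooth curve on GC content was removed from each library, 3 genes were called higher (RPL8 and RPS19 among them) and 40 lower, where the same fit called 30.7% of all genes higher and 27.6% lower. The correlation between fold change and GC content across the 79 genes was then 0.34.

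**Figure D3:**
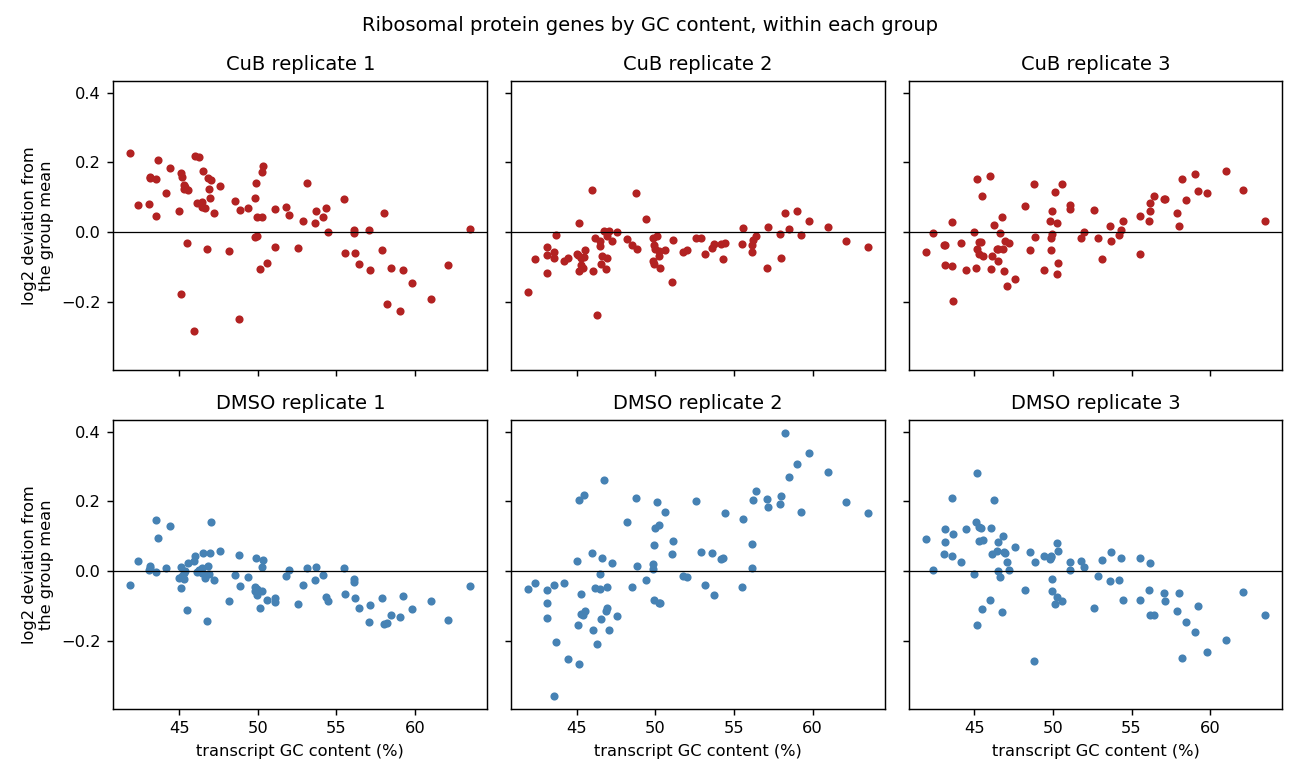
Log2 deviation of each of the 79 tested ribosomal protein genes from its group mean, on the log2(FPKM + 1) scale, against transcript GC content in percent, with CuB libraries in the upper row (red) and DMSO libraries in the lower row (blue). Points slope down in CuB replicate 1 and in DMSO replicates 1 and 3, and up in CuB replicate 3 and DMSO replicate 2, where r was 0.69.

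Small nucleolar RNA genes and annotated starts were also compared, as a description with no test. Genes whose span overlaps small nucleolar RNA genes on the same strand numbered 28, with 60 such genes in all. They had 1 higher and 6 lower calls and a median log2 fold change of -0.10. Whether each small nucleolar RNA gene lies in an intron was not checked. The 51 tested genes without any had 1 higher and 11 lower calls and a median of -0.14. Lower calls were thus 21.4% and 21.6% and higher calls 3.57% and 1.96%, against 15.6% and 22.9% of all tested genes. Of the 45 tested genes with a pyrimidine run at the annotated start 8 were lower, with a median of -0.13. Of the 18 with an entry but no such run 4 were lower, with a median of -0.11. These counts too stand beside the 15.6% of all tested genes called lower.

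How many ribosomal protein genes were called depended on the scaling. With each library set to the same FPKM sum (TPM), 1 gene was higher and 30 lower, where 17.5% of all genes were higher and 20.1% lower. With equal fragment totals 0 were higher (1 at an unadjusted p under 0.05) and 40 lower (15.2% and 23.7% of all genes), and with quantile normalization 1 and 41 (16.9% and 18.9% of all genes). With no filter on low genes, and so 58735 genes tested, 1 gene was higher and 2, RPL31 and RPL36AL, were lower, where 3.19% of all genes were higher and 2.24% lower. All 17 genes called lower on the deposited scale were called lower under each of the 3 scalings and after the GC correction. These settings also moved the ribosomal protein median further down, so such calls were likely to be kept and give no separate support. The replicate block kept 9 of the 17 calls, no trend 11, robust hyperparameters 15 and limma-voom 16. All 17 were kept with the other pseudocounts, a minimum of 5 FPKM or median of ratios. Equal fragment totals moved the median of all genes to -0.09 and that of the ribosomal protein genes to -0.28. Relative to the median of all genes, the ribosomal protein median was -0.18 as deposited, -0.19 with TPM, -0.20 with equal fragment totals and -0.24 with quantile normalization. Of all calls 59.5% were higher as deposited, 46.5% with TPM, 47.2% with quantile normalization and 39.0% with equal fragment totals.

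**Figure D4:**
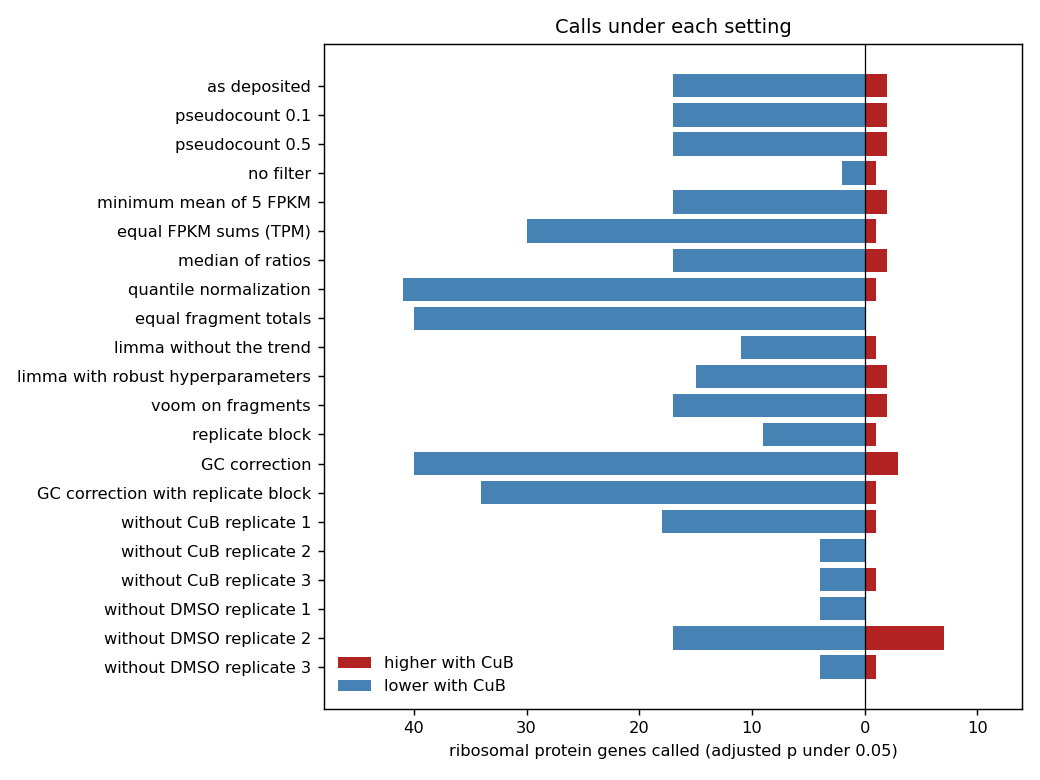
Number of ribosomal protein genes called higher (red, to the right) and lower (blue, to the left) with CuB by limma under each setting, at an adjusted p under 0.05. The deposited scale gives 2 and 17 calls, and lower calls range from 2 with no filter on low genes to 41 with quantile normalization.

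Lists of genes of the pathway around the ribosomal proteins were chosen with earlier results of these data known. They are read against the shares of all tested genes, 22.9% higher and 15.6% lower as deposited. The shares are 30.7% and 27.6% after the GC correction, 17.5% and 20.1% with TPM, 16.9% and 18.9% with quantile normalization and 15.2% and 23.7% with equal fragment totals. Of 42 tested nucleolar assembly factors 29 (69.0%) rose and 0 fell by limma, where 22.9% of all genes rose and 15.6% fell, also with 0 lower at an unadjusted p under 0.05 and by limma-voom, and their median log2 fold change was 0.44. Their summed FPKM was between 2086 and 2126 with CuB and between 1536 and 1563 with DMSO. RRP12, which exports and matures pre-ribosomes, was at 54.0, 61.6 and 60.2 FPKM with CuB and at 20.6, 26.7 and 20.2 FPKM with DMSO (log2 fold change 1.35 ± 0.12, SE; limma, adjusted p = 0.000289). BYSL, a factor of small subunit maturation, was at 28.4, 31.5 and 31.5 FPKM with CuB and at 15.1, 18.9 and 15.4 FPKM with DMSO. NOP58, a core protein of box C/D particles, was at 94.0, 84.9 and 78.8 FPKM with CuB and at 51.0, 44.5 and 53.9 FPKM with DMSO. All 3 had every CuB library above every DMSO library. The count of higher assembly factors was 36 after the GC correction (30.7% of all genes), with 1 lower (27.6% of all genes). It was 21 with TPM (17.5% of all genes), 19 with equal fragment totals (15.2%) and 14 with quantile normalization (16.9%), with 0 lower by limma in each.

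RNA polymerase I, which transcribes the large ribosomal RNA precursor, had 6 higher (42.9%, against 22.9% of all genes) and 1 lower (7.14%, against 15.6%) of 14 tested genes, with a median log2 fold change of 0.32. There were 3 higher and 1 lower under TPM, quantile normalization and equal fragment totals, where between 15.2% and 17.5% of all genes were higher and between 18.9% and 23.7% lower. TAF1D, a subunit of the promoter selectivity factor, was at 58.6, 49.5 and 43.4 FPKM with CuB and at 21.3, 17.9 and 23.6 FPKM with DMSO. TAF1A, another subunit of it, was at 19.8, 16.7 and 15.4 FPKM with CuB and at 9.496, 9.18 and 9.25 FPKM with DMSO. RRN3, which ties the polymerase to that factor, rose by 0.60 ± 0.12 on the log2 scale (SE; limma, adjusted p = 0.00762). POLR1D, a subunit shared with RNA polymerase III and the 1 gene of the list that fell, had a log2 fold change of -0.33 and was named after its value was seen.

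Translation factors and other mRNAs known for a TOP start were mixed. Of 17 tested, 3 rose (17.6%, against 22.9% of all genes) and 1 fell (5.88%, against 15.6%), with a median log2 fold change of 0.00. The split turned with the setting, with 4 higher and 6 lower after the GC correction (30.7% and 27.6% of all genes), 2 and 4 with TPM (17.5% and 20.1%), 1 and 5 with quantile normalization (16.9% and 18.9%) and 1 and 6 with equal fragment totals (15.2% and 23.7%). EIF4A2, an RNA helicase of initiation, had a log2 fold change of 0.50 ± 0.10 (SE; limma, adjusted p = 0.00829), and EEF1D, an exchange factor of elongation, 0.47 ± 0.14 (SE; limma, adjusted p = 0.0341). NPM1, a nucleolar chaperone, was at 565, 477 and 466 FPKM with CuB and at 378, 345 and 407 FPKM with DMSO. EIF4B, a cofactor of the initiation helicase, was at 118, 120.2 and 114 FPKM with CuB and at 148, 142 and 149 FPKM with DMSO, and was named after its value was seen. EEF1G, an abundant elongation factor, is listed at 0 in all 6 libraries.

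Among 14 regulators of TOP mRNAs, 3 rose (21.4%, near the 22.9% of all genes) and 1 fell (7.14%, against 15.6%), with a median of 0.25. The split was 9 higher and 2 lower after the GC correction (30.7% and 27.6% of all genes) and 1 and 1 under TPM, quantile normalization and equal fragment totals. EIF4EBP2, a repressor of initiation that mTOR inactivates, was at 13.0, 12.3 and 12.8 FPKM with CuB and at 19.4, 18.5 and 18.8 FPKM with DMSO (log2 fold change -0.54 ± 0.07, SE; limma, adjusted p = 0.00152). CNBP, a protein that binds TOP mRNAs, was at 234, 219 and 214 FPKM with CuB and at 166, 152 and 171 FPKM with DMSO. LARP1B, a relative of LARP1, had a log2 fold change of 0.41 ± 0.12 (SE; limma, adjusted p = 0.0321). LARP1 itself, named after its value was seen, was at 53.7, 59.1 and 61.0 FPKM with CuB and at 47.5, 50.7 and 45.0 FPKM with DMSO. Its log2 fold change was 0.27 ± 0.08 (SE; limma, adjusted p = 0.0396). The groups of EIF4EBP2 and of CNBP did not overlap.

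Of 7 ribosomal proteins and close copies under other names, 1 rose (14.3%, against 22.9% of all genes). After the GC correction 1 was higher and 1 lower. With TPM 0 were higher and 0 lower, with quantile normalization 0 and 1 and with equal fragment totals 0 and 2, so the rise was not called under these 3 scalings. The gene that rose was RSL24D1, a placeholder for a ribosomal protein in the maturing large subunit, at 99.0, 78.3 and 69.9 FPKM with CuB and at 59.7, 49.1 and 62.2 FPKM with DMSO (log2 fold change 0.52 ± 0.15, SE; limma, adjusted p = 0.0314). Of 8 chaperones 0 were called by limma, with 3 higher and 0 lower at an unadjusted p under 0.05, and limma-voom called 2 higher. The direction turned with the scaling, since with equal fragment totals 0 were higher and 3 lower at an unadjusted p under 0.05. At the adjusted threshold 0 were higher and 2 lower with equal fragment totals and with quantile normalization, and 0 and 1 with TPM. BTF3, of the complex that meets new chains at the ribosome, was at 258, 227 and 232 FPKM with CuB and at 258, 243 and 262 FPKM with DMSO, and its partner NACA at 52.8, 47.9 and 45.2 against 52.8, 48.0 and 54.4 FPKM. After the GC correction 3 chaperones were higher and 2 lower (30.7% and 27.6% of all genes).

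Of 9 genes of the stress response to failed ribosome assembly, 2 rose (22.2%, near the 22.9% of all genes) and 3 fell (33.3%, against 15.6%). There were 4 higher and 3 lower after the GC correction, 1 and 3 with TPM or equal fragment totals and 1 and 2 with quantile normalization. CDKN1A, an inhibitor of the cell cycle, was at 64.2, 68.5 and 69.9 FPKM with CuB and at 24.9, 31.3 and 24.1 FPKM with DMSO. Every CuB library was above every DMSO library. The list median was 0.16.

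The mitochondrial ribosomal proteins, which build a separate ribosome, had 10 higher (13.2%) and 2 lower (2.63%) of 76 tested genes, both shares below the 22.9% and 15.6% of all genes, and a median log2 fold change of 0.11. MRPS6 was at 7.17, 7.29 and 7.20 FPKM with CuB and at 13.9, 12.1 and 14.04 FPKM with DMSO. MRPL34 was at 17.2, 15.9 and 19.6 FPKM with CuB and at 26.1, 36.9 and 27.4 FPKM with DMSO, and MRPL54 at 19.8, 21.0 and 24.0 against 10.7, 15.2 and 11.8 FPKM. The groups did not overlap in any of the 3. Their counts were 20 higher and 15 lower after the GC correction (30.7% and 27.6% of all genes), 6 and 7 with TPM (17.5% and 20.1%), 3 and 11 with quantile normalization (16.9% and 18.9%) and 3 and 12 with equal fragment totals (15.2% and 23.7%). The larger side of the split thus turned round with each of these 3 scalings.

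**Figure D5:**
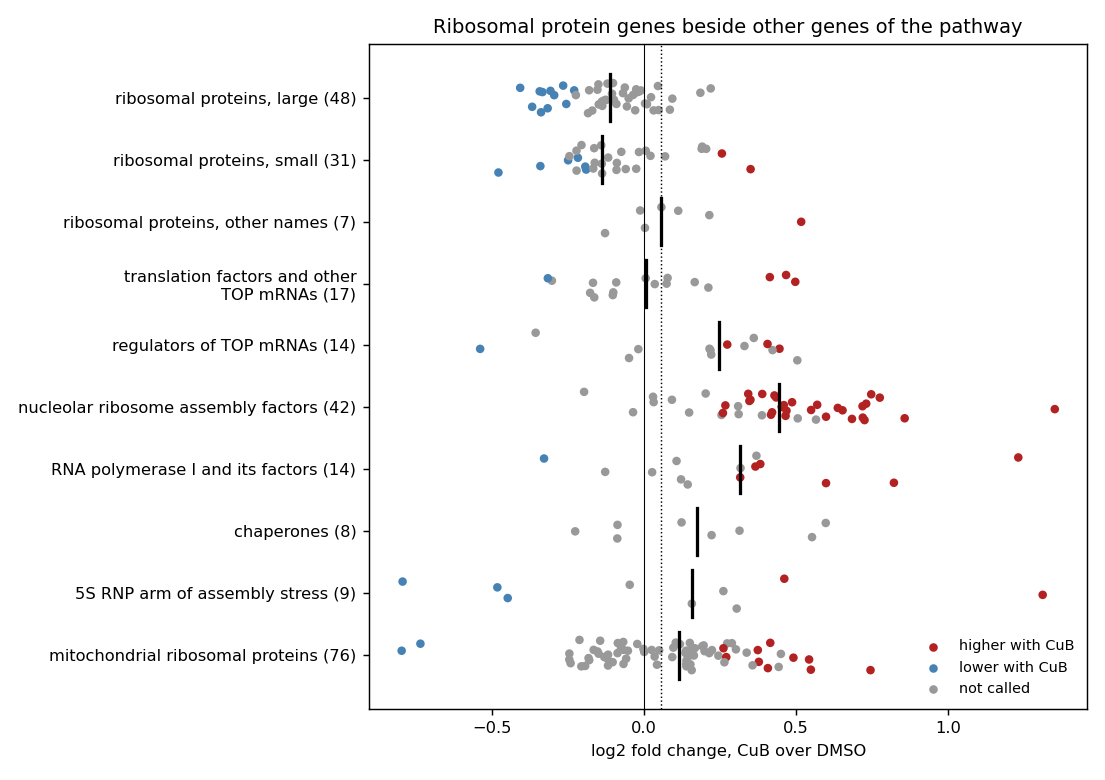
Log2 fold change of CuB over DMSO, on the log2(FPKM + 1) scale, for each tested gene (points) of the large and small subunit and of 8 other groups of the pathway, with the number tested in brackets. Red and blue points are genes called higher and lower, black bars the group medians and the dotted line the median of all tested genes (0.05); nucleolar assembly factors have a median of 0.44, large and small subunit proteins -0.11 and -0.14.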

How the data were processed

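Polyadenylated RNA of 3 CuB and 3 DMSO libraries was analysed from 1 deposited table of FPKM for 58735 genes, made by the authors. Per the labels' protocols the TruSeq RNA kit was used, which does not mark strand. Per the submitters' processing notes, GRCh38 was the build. Neither an aligner nor a way of counting or scaling is stated (not given in the sources used here). Columns were assigned by the library names in the labels, and 0 sample columns were left unused.

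Gene lengths and coordinates in the table equal those of GENCODE 29 for all 58735 genes, the length being the union of exons. Fragments per gene were recovered from the smallest steps in each FPKM column, with 100% of nonzero values whole to a tolerance of 0.01. The sources leave unsaid if these are single reads or pairs. GC content was taken over all annotated transcripts of a gene. Library totals lay between 14845976 and 16137093 fragments, and tested ribosomal protein genes had between 79 and 35800 fragments a library.

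In R 4.3.3, log2(FPKM + 1) of 13273 genes averaging 1 FPKM or more was tested by limma 3.58.1 with an intensity trend, without a replicate block, on 4 residual degrees of freedom. Adjusted p-values are Benjamini-Hochberg over all tested genes, with a threshold of 0.05, and fold changes of low genes are understated on this scale. The fit was also run on simulated counts, drawn without the GC-linked deviations of these libraries, so that run cannot vouch for the calls. The table holds no raw counts, so no raw count test was run. Alternatives were a pseudocount of 0.1 or 0.5, a minimum of 5 FPKM or no filter, TPM, median of ratios, quantile normalization, equal fragment totals, limma without the trend or with robust hyperparameters (statmod 1.5.0), limma-voom on recovered fragments, a GC correction (lowess, span 0.3), the replicate block and each library left out. Leaving out overlapped genes was added after seeing the data. Figures used matplotlib 3.10.9 in Python 3.11.15.

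The genes and the lists were chosen with earlier results of these data known. Named were the 8 largest passing rises and falls (fewer rose), the 5 highest means, RPLP0, RPLP1, RPLP2, RPL5, RPL11, RPS6, RPS27A, copies ending in L with their parent gene, and of each list up to 3 largest passing changes, or the 2 highest means where none passed. Other genes named were chosen after their values were seen. A few genes that meet the naming rule are not reported here by name.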

Additional observations from a re-analysis of the deposited data

How the results depend on the processing

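The number of lower ribosomal protein genes, 17 as deposited, became 2 with no filter on low genes (which tests 58735 genes), 30 with TPM, 41 with quantile normalization, 40 with equal fragment totals, 11 without the trend and 40 with the GC correction. Without the trend 2069 of all 13273 genes were lower, a larger share than the 11 of 79. Higher genes, 2 as deposited, became 1 with no filter, TPM, quantile normalization, no trend or without genes overlapped on their own strand, and 0 with equal fragment totals. The median log2 fold change, -0.12 as deposited, became -0.22 with TPM, -0.27 with quantile normalization, -0.28 with equal fragment totals and -0.16 with the GC correction. The large minus small difference became -0.035 with quantile normalization. Over all genes 5118 calls became 3191 with no filter, 3250 at a minimum of 5 FPKM (fewer genes tested) and 7745 with the GC correction. The causes of these changes were not tested.

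With each library left out in turn, lower genes ranged from 4 to 18, higher genes from 0 to 7, the median from -0.15 to -0.09, the large minus small difference from -0.0146 to 0.0026 and all calls from 3262 to 5755. Each of these fits has 2 libraries in one group.

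Deviations of same-numbered libraries from their group means correlated at 0.27, 0.12 and -0.36, and CuB replicate 3 was closest to DMSO replicate 2 (0.47). Because these deviations went with GC content, they cannot show whether the replicate numbers pair the libraries. With the replicate block 1 ribosomal protein gene was higher and 9 lower. That fit called 1796 of all 13273 genes lower, a larger share than the 9 of 79. With the GC correction and the replicate block 1 was higher and 34 lower, with a median of -0.16, where 3477 of all genes were lower.

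Among 50 named genes under all settings, 854 of 997 values kept direction and side of the threshold, 43 newly passed, 84 no longer passed and 16 changed sign, in 6 genes that were not called. RPS2 was at -0.0023 with quantile normalization. RPL5 was at -0.0103 with TPM, -0.108 with quantile normalization and -0.0723 with equal fragment totals. RPL36A was at -0.0354 with TPM, -0.085 with equal fragment totals and -0.0056 with the GC correction, alone or with the block. With a library left out, RPL36A ranged from -0.131 to 0.153, RPLP2 from -0.102 to 0.0808, RPS27A from -0.135 to 0.035 and RPL3 from -0.0931 to 0.023.

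With 3 libraries a group, and a dose that the labels give in 2 ways, differences of the size seen here rest on few degrees of freedom.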
